A study of Mus musculus with 12 samples.

Results

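The genes described here are 47 mouse genes of the lysosome, taken by symbol from a list drawn up with earlier results of these data known: 9 cathepsins, 14 glycosidases and sulfatases, 8 lipid hydrolases and other soluble proteins, 8 membrane proteins, 5 subunits of the vacuolar proton pump (V-ATPase) and 3 transcription factors of the MiT/TFE family. All 47 were found among the 37542 gene rows that could be used, and all 47 passed the filter on low counts, which kept 12261 genes. RNA was sequenced from primary bone-marrow-derived macrophages of C57BL/6N mice, grown for 7 days with L929-conditioned medium, which supplies the macrophage growth factor. There were 4 groups of 3 libraries, namely Alpk1 knockout (KO) cells after 4 h with 100 µM ADP-Hep, KO cells after 4 h with PBS, wild-type (WT) cells after 4 h with 100 µM ADP-Hep and WT cells after 4 h with PBS. ADP-Hep (ADP-heptose) is a bacterial sugar nucleotide that the kinase Alpk1 binds in the cytosol, so the design asks how macrophages respond to it and what of the response is left in KO cells. The labels do not give the deleted part of Alpk1. They also do not say whether replicates are separate mice or cultures, so the p-values speak for the spread among the libraries, which may be of technical origin.

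Lysosomes break down material from endocytosis, phagocytosis and autophagy with a large set of acid hydrolases, and macrophages are rich in them. The V-ATPase pumps protons into the lumen, the hydrolases act at that low pH, and channels and transporters of the membrane carry ions and breakdown products out. Many of the genes are transcribed under Tfeb, Tfe3 and Mitf, factors that bind an E-box with the letters CACGTG in promoters, the core of the so-called CLEAR element. When mTORC1 is active at the lysosome, these factors are kept in the cytosol, and the Rag GTPases with folliculin (Flcn) and its partners Fnip1 and Fnip2 take part in that control.

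Promoter windows of 300 bases, with 250 before and 50 after the annotated start, were read from RefSeq (GRCm38.p6) for 40 of the 47 genes. The letters CACGTG, which read the same on both strands, stood in the window of 14 of these 40 genes (35.0%), against 2187 of 27025 genes with a promoter in the table (8.09%). The 40 all passed the filter on low counts, whereas the 27025 hold many genes that did not, so these sets also differ in expression. Among the other tested genes with a promoter in the table, 1123 had the letters and 8359 did not. The longer TCACGTG, which contains those letters and was searched on both strands, stood in 13 of the 40 (32.5%, against 4.29% of all genes), and TCACGTGA in 7 (17.5%, against 1.12%). The 14 genes were Arsa, Atp6v0d1, Atp6v1a, Cln3, Ctsa, Ctsd, Ctsl, Gaa, Gla, Glb1, Lamp1, Mcoln1, Naglu and Sgsh. Shown are 5 windows with the E-box in capitals, of genes that ADP-Hep lowered in both genotypes and that come from 4 classes, and last the window of Ctsc, the 1 gene called higher in both genotypes, which held no such letters.
Ctsd, chr7:142387778-142388077, minus strand: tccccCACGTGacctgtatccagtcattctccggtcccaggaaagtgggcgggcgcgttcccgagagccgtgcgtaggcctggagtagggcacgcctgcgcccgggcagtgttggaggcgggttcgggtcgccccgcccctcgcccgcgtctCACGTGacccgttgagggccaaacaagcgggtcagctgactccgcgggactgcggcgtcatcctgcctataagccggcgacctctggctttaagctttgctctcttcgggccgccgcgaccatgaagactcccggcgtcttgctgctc
Sgsh, chr11:119355461-119355760, minus strand: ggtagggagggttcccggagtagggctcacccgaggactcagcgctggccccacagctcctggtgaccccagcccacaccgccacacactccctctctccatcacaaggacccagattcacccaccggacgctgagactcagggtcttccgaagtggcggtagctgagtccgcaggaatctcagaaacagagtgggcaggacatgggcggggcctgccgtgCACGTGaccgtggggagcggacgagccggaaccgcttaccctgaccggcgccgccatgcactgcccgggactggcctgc
Gla, chrX:134600956-134601255, minus strand: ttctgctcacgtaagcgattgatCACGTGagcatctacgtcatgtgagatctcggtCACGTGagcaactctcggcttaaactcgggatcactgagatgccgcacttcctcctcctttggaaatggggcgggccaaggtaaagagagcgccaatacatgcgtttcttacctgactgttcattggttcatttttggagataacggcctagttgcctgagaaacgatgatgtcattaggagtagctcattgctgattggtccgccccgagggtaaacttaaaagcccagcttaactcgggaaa
Mcoln1, chr8:3500269-3500568, plus strand: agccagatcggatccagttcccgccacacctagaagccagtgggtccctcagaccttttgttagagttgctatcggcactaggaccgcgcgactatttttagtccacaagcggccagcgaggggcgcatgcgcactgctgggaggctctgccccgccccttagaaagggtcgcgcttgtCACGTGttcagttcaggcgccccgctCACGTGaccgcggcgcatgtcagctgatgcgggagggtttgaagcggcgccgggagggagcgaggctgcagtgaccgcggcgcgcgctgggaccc
Atp6v1a, chr16:44139210-44139509, minus strand: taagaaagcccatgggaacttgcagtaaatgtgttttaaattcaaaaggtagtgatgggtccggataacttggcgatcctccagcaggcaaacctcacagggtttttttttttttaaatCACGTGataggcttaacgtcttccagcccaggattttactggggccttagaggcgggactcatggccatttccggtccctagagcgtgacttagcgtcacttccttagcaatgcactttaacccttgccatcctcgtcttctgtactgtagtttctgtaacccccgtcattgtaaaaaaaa
Ctsc, chr7:88277835-88278134, plus strand: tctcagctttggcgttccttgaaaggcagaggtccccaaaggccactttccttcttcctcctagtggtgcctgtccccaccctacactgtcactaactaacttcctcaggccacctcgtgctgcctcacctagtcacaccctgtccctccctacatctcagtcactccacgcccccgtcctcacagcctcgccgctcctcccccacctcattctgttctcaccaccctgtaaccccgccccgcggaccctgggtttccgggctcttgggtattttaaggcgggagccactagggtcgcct
With the start counted as 0, the first E-box began at base -245 in Ctsd, -29 in Sgsh, -227 in Gla, -71 in Mcoln1 and -131 in Atp6v1a, and Ctsd, Gla and Mcoln1 held 2 each. A match of letters is not evidence that a factor binds there, and its absence from this window says nothing about the factor. The windows shown were chosen by response, so they do not show how the letters go with it. Of the 26 genes whose windows held no such letters, 11 were called lower in KO cells and 18 in WT cells. Of the 14 with the letters, 12 were called lower in KO cells and 12 in WT cells. Over all tested genes 15.3% were called lower in KO cells and 31.6% in WT cells.

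The libraries held 16110654 to 31333973 counts each. The rows used took 71.28 to 85.22% of them. Below a certain row of the deposited table the KO columns sat 1 row away from the gene identifiers, so 19206 rows were left out, and none of the 47 genes was among them. One KO ADP-Hep column carries a number that matches no label and is called the unnumbered library here. Over the 47 genes the median coefficient of variation between the libraries of a group was 2.62 to 4.07%, and the library called KO ADP-Hep 3 was the highest of its group for 29 of the 47 genes and WT ADP-Hep 3 for 35. Each had the fewest counts of its group in the rows used (12307826 and 12512683). How often they were highest over all tested genes was not counted, so this may not be particular to the 47. Alpk1 itself was read at 19.2 to 22.4 counts per 1000000 (CPM) in KO ADP-Hep, 20.3 to 22.3 in KO PBS, 52.3 to 55.3 in WT ADP-Hep and 25.9 to 32.1 CPM in WT PBS cells, so transcripts of the gene remained in the libraries labelled KO. Macrophage markers summed to between 24840 and 29520 CPM in every group, all 8 of them detected, while 4 or all of 5 fibroblast markers, 5 of 6 B and T cell markers and 4 or 5 of 6 dendritic cell markers were below 1 CPM. The sum hides single macrophage markers: with ADP-Hep 1 was called higher and 1 lower in KO cells, and 3 higher and 3 lower in WT cells. Their log2 fold changes ran from -0.40 to 0.16 in KO cells and from -2.28 to 3.56 in WT cells. The 8 neutrophil markers summed to 169 to 179 CPM in KO ADP-Hep and 242 to 270.1 CPM in KO PBS cells. Their sums were 201 to 224 CPM in WT ADP-Hep and 206 to 227 CPM in WT PBS cells. With ADP-Hep, 5 of the 8 were called lower and none higher in KO cells, and 1 lower and 3 higher in WT cells. Of all tested genes, 15.3% were called lower and 13.7% higher in KO cells, and 31.6% and 31.9% in WT cells. The 6 osteoclast markers summed to 15.7 to 17.8 CPM in KO ADP-Hep, 17.4 to 19.8 in KO PBS, 49.7 to 59.5 in WT ADP-Hep and 15.2 to 17.6 CPM in WT PBS cells, with Calcr, Ocstamp, Dcstamp and Oscar below 1 CPM in every group. The part of these cell types in the results was not tested, and in such bulk samples fewer cells of a type and less RNA per cell cannot be told apart.

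The lysosomal genes took a large part of the macrophage transcriptome. Their counts made up 5.96% ± 0.158 of the counts in the rows used in KO ADP-Hep cells, 6.73% ± 0.14 in KO PBS cells, 4.71% ± 0.172 in WT ADP-Hep cells and 6.09% ± 0.117 in WT PBS cells (mean ± SD, n = 3 libraries each). The ADP-Hep libraries were below the PBS libraries of their genotype without overlap, and the lowest share of all was in WT ADP-Hep cells. These are shares of raw counts, not scaled by TMM (trimmed mean of M-values) as the CPM values and the tests are. With all rows of the table in the denominator the means were 4.48% in KO ADP-Hep, 5.40% in KO PBS, 3.75% in WT ADP-Hep and 4.51% in WT PBS cells. Prosaposin (Psap) and cathepsin B (Ctsb) alone gave between 44.4 and 50.7% of the members' counts in a library. Per kilobase of exon in WT PBS cells, the highest levels were those of Psap (5248 ± 240.5 CPM per kb), Ctsd (2700.0 ± 110), Ctsb (2332 ± 37.9) and Ctss (1558 ± 79.5), and the lowest those of Mcoln1 (8.44 ± 0.789) and Tfeb (6.83 ± 0.517; mean ± SD, n = 3 for each). Among the highest 4, neighbours lay apart by more than their SDs. By class, the glycosidases and sulfatases took 0.391% ± 0.0064 of the counts in KO ADP-Hep, 0.417% ± 0.0087 in KO PBS, 0.281% ± 0.0077 in WT ADP-Hep and 0.391% ± 0.005 in WT PBS cells. The MiT/TFE factors took 0.0277% ± 0.0009 in KO ADP-Hep against 0.0303% ± 0.0005 in KO PBS cells, and ran the other way in WT cells, with 0.0352% ± 0.0003 in WT ADP-Hep against 0.0297% ± 0.0008 in WT PBS cells.

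**Figure D1:**
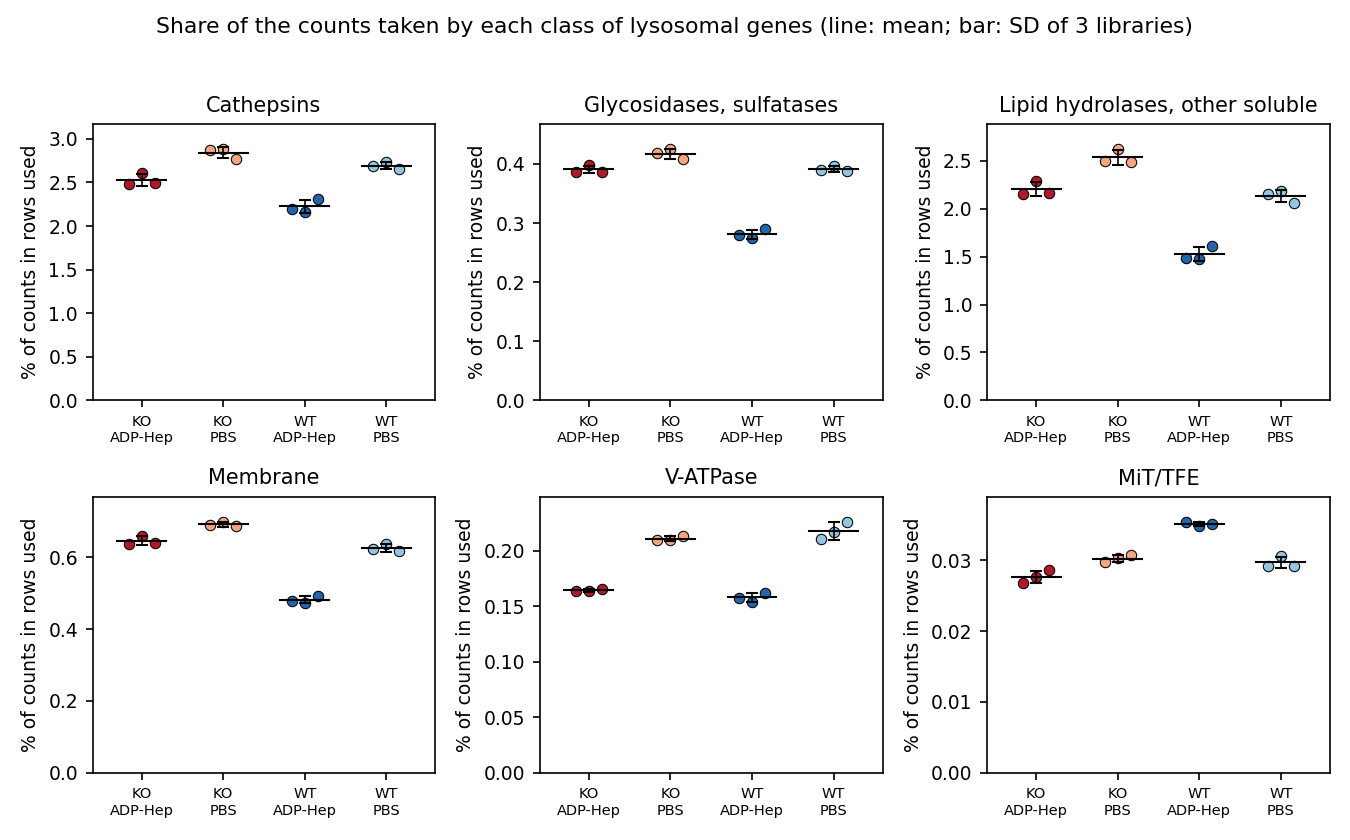
Share of the counts in the rows used (y axis, %, each panel on its own scale from 0) taken by each class of lysosomal genes in each library, with a point per library, a line at the mean and a bar for the SD of the 3 libraries of KO ADP-Hep, KO PBS, WT ADP-Hep and WT PBS cells from left to right. The mean of each class but the MiT/TFE factors was lowest in WT ADP-Hep cells, and V-ATPase subunits were about as low in KO ADP-Hep cells (0.164%) as in WT ADP-Hep cells (0.158%). These are shares of raw counts, and that order rests on the scaling. With TMM the 5 V-ATPase genes had a median log2 fold change of -0.06 in KO against WT cells after ADP-Hep, with 1 called higher and 2 lower.

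ADP-Hep lowered many of the lysosomal genes in KO macrophages and most of them in WT macrophages. In KO cells 26 of the 47 were called lower and 1 higher (Ctsc) at an adjusted p under 0.05, where 15.3% of all 12261 genes were called lower and 13.7% higher. In WT cells 36 of the 47 were called lower and 4 higher (Ctsc, Tfe3, Mitf and Atp6v1h), against 31.6% and 31.9% of all genes. The counts by class given below are to be read beside these shares. The median log2 fold change of ADP-Hep over PBS was -0.16 over the 47 and 0.01 over all tested genes in KO cells, and -0.29 over the 47 and -0.01 over all in WT cells. Most single changes were small: against a change of 1.5-fold (the glmTreat test), none of the 47 was called in KO cells, where 0.44% of all genes were called higher and 0.922% lower, and in WT cells Ctsc was higher and Sgsh, Naglu and Atp6v0d2 lower, where 8.83% of all genes were higher and 8.6% lower. When libraries were scaled by their totals in place of TMM (trimmed mean of M-values) the all-gene median moved to 0.05 in KO and -0.12 in WT cells, and the calls over all genes split into 2360 higher and 1483 lower in KO cells and 2990 higher and 4927 lower in WT cells. Of the 47 genes, 1 was then higher and 23 lower in KO cells and 4 higher and 41 lower in WT cells, with Atp6ap1, Cd63, Cln3, Lamp2 and Npc2 added to those lower in WT cells.

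The calls of the 2 responses fell into a few patterns. Lower in both genotypes were 21 genes, which is 80.77% of those lower in KO cells and 58.33% of those lower in WT cells. Over all tested genes 1075 were lower in both (8.77%), which is 57.49% of those lower in KO cells and 27.77% of those lower in WT cells. Both responses come from the same fit but share no libraries. Ctsc was higher in both, and Mitf was the gene with opposite calls, lower in KO and higher in WT cells. Atp6ap1, Cd63, Cln3 and Ctsz were called lower in KO cells alone, of which all but Cd63 also passed the test of the difference between the responses. A further 15 were called lower in WT cells alone, of which 10 passed that test and 5 (Ctss, Galns, Grn, Gusb and Tpp1) did not, and Atp6v1h and Tfe3, called higher in WT cells alone, both passed it. Ctsl, Lamp2 and Npc2 passed the test in neither genotype. As a description of the libraries themselves, the KO ADP-Hep libraries lay wholly below the KO PBS libraries for 37 genes and wholly above for 1, against 20.9% and 21.1% of all tested genes. The WT ADP-Hep libraries lay wholly below the WT PBS libraries for 36 and wholly above for 5, against 33.3% and 32.7% of all tested genes.

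**Figure D2:**
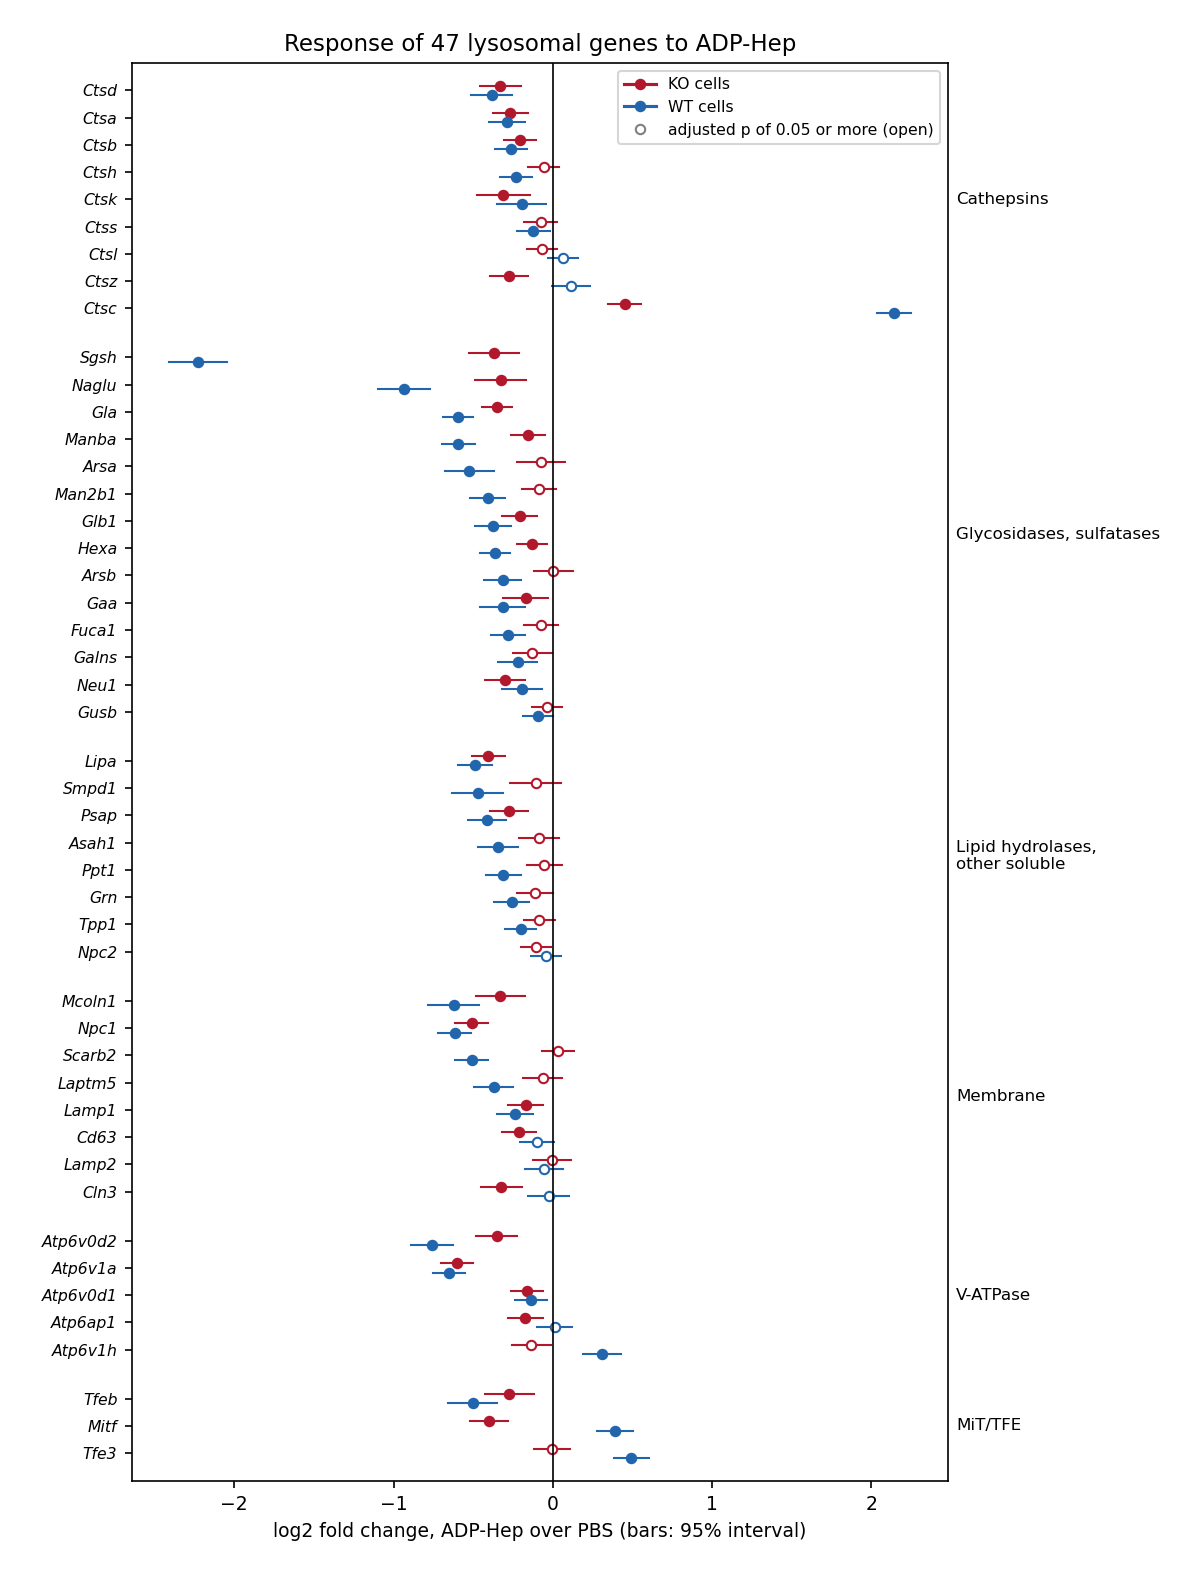
Log2 fold change of ADP-Hep over PBS (x axis) for each of the 47 genes (y axis, by class and then by the WT value), in KO cells (red, upper) and WT cells (blue, lower), with bars for the 95% interval and filled points where the adjusted p was under 0.05. Most points lie left of 0, the glycosidases and sulfatases are all filled and left of 0 in WT cells, and Ctsc (2.14) and Sgsh (-2.23) in WT cells lie far from the rest. With library totals as scaling, Atp6ap1 turned to -0.10 in WT cells.

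Among the cathepsins, the lysosomal proteases, cathepsin C rose and most others fell. Ctsc (dipeptidyl peptidase I, which trims other proteases into their active form; chromosome 7, bases 88278085 to 88310888, plus strand) had 427, 415 and 430.4 CPM in KO ADP-Hep cells and 307, 309 and 316 CPM in KO PBS cells. Its levels in WT cells were 1649, 1651 and 1519 CPM with ADP-Hep and 352, 358 and 382 CPM with PBS. The KO ADP-Hep libraries lay above both PBS groups without overlap, and the WT ADP-Hep libraries far above all others. The log2 fold change, with its standard error (SE) and the p-value adjusted over all tested genes, was 0.45 (SE 0.05, adjusted p = 3.59e-08) in KO cells and 2.14 (SE 0.05, adjusted p = 1.80e-22) in WT cells, a 4.41-fold rise. Ctsd, the aspartic protease cathepsin D, had 5028, 5646 and 5126 CPM in KO ADP-Hep cells and 6556, 6783 and 6508 CPM in KO PBS cells. The WT libraries held 4546, 4692 and 5356 CPM with ADP-Hep and 6428, 6554 and 6058 CPM with PBS. Both ADP-Hep groups lay below both PBS groups, with log2 fold changes of -0.33 (SE 0.06, adjusted p = 7.56e-05) in KO cells and -0.38 (SE 0.06, adjusted p = 1.95e-06) in WT cells. Ctsb, a cysteine protease and one of the most abundant transcripts of these cells, had 13025, 13889 and 13087 CPM in KO ADP-Hep cells and 15417, 15555 and 15195 CPM in KO PBS cells. WT levels came to 11350.3, 11518 and 12432 CPM with ADP-Hep and 14106, 14340.5 and 13882 CPM with PBS. It too fell in both, with log2 fold changes of -0.21 (adjusted p = 9.16e-04) in KO and -0.26 (adjusted p = 1.40e-05) in WT cells. In all, 5 of the 9 cathepsins fell and 1 rose in KO cells, and 6 fell and 1 rose in WT cells. Ctsa (a carboxypeptidase that also protects other hydrolases) and Ctsk (the collagen-degrading cathepsin of osteoclasts, at 20.6 to 34.3 CPM here) fell in both, while Ctsh (-0.23) and Ctss (-0.12) fell in WT cells. Ctsz was called in KO cells, with -0.28 (SE 0.05, adjusted p = 2.24e-04), against 0.11 (SE 0.05, adjusted p = 0.0607) in WT cells. Ctsl, a major endopeptidase, gave -0.07 in KO and 0.07 in WT cells and passed in neither. Calls that rested on single libraries were those of Ctsk in WT cells, lost without WT PBS 2 (adjusted p = 0.114) or WT ADP-Hep 2 (adjusted p = 0.0562), and of Ctss, lost without WT PBS 3 (adjusted p = 0.144). Ctsz was called higher in WT cells, opposite to its KO call, without WT ADP-Hep 1 (adjusted p = 0.0169) or 2 (adjusted p = 0.04). The same call was made with DESeq2 (adjusted p = 0.0459).

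All 14 glycosidases and sulfatases, which take sugars and sulfate groups off glycans and glycolipids, fell in WT cells, and 8 of them fell in KO cells, with class medians of -0.14 in KO and -0.37 in WT cells. Sgsh, the sulfatase that takes sulfate off the amino sugar of heparan sulfate (chromosome 11, bases 119343425 to 119355536, minus strand), had 78.01, 86.7 and 77.96 CPM in KO ADP-Hep cells and 99.6, 114 and 97.8 CPM in KO PBS cells. It stood at 19.4, 19.8 and 20.04 CPM in WT ADP-Hep and 92.7, 102 and 83.5 CPM in WT PBS cells. The KO ADP-Hep libraries lay below KO PBS and overlapped WT PBS, and the 3 WT ADP-Hep libraries held about the same low level. The log2 fold change was -0.37 (SE 0.07, adjusted p = 2.46e-04) in KO cells and -2.23 (SE 0.08, adjusted p = 6.64e-17) in WT cells, which leaves 0.213 of the PBS level. Exons of Sgsh overlap those of Card14 on the other strand over 955 bases. Card14 had 76 counts over all libraries and Sgsh 14955, and the part of the overlap in the Sgsh values was not tested. Naglu, which removes that amino sugar once the sulfate is gone and an acetyl group is added (chromosome 11, bases 101070012 to 101077672, plus strand), had 141, 154 and 133 CPM in KO ADP-Hep cells and 168, 200.1 and 168 CPM in KO PBS cells. WT cells had 82.5, 89.9 and 92.7 CPM with ADP-Hep and 171, 177 and 159 CPM with PBS. Its values are given because it acts after Sgsh, a choice made after they were seen. It was lower in every WT ADP-Hep library than in any other library, with -0.33 (SE 0.07, adjusted p = 0.00136) in KO and -0.94 (SE 0.07, adjusted p = 5.22e-10) in WT cells. Gla, alpha-galactosidase A, which removes galactose from the ends of glycolipids, had 266, 259.6 and 263 CPM in KO ADP-Hep cells and 337, 333 and 337 CPM in KO PBS cells. Its levels in WT cells were 216, 212 and 218 CPM with ADP-Hep and 320.1, 321 and 334 CPM with PBS. Its 4 groups did not overlap apart from the PBS groups, with -0.35 (SE 0.04, adjusted p = 2.91e-07) in KO and -0.60 (SE 0.04, adjusted p = 2.08e-12) in WT cells. Manba, the beta-mannosidase of the last step of N-glycan breakdown, had 106, 108 and 107 CPM in KO ADP-Hep cells and 121, 115 and 121 CPM in KO PBS cells. The WT libraries held 82.6, 82.5 and 81.00 CPM with ADP-Hep and 119, 126 and 126 CPM with PBS. The change was -0.16 (SE 0.05, adjusted p = 0.0112) in KO cells and -0.59 (SE 0.05, adjusted p = 2.31e-11) in WT cells, and the KO call was lost with library totals as scaling (adjusted p = 0.0615). The other 10 fell in WT cells, with log2 fold changes between -0.52 (Arsa, arylsulfatase A) and -0.10 (Gusb, beta-glucuronidase). Of these, Glb1 (beta-galactosidase), Hexa (the alpha chain of beta-hexosaminidase), Gaa (acid alpha-glucosidase, which breaks down glycogen) and Neu1 (a sialidase) also fell in KO cells, with values from -0.30 for Neu1 to -0.13 for Hexa. Arsa, Arsb, Fuca1, Galns, Gusb and Man2b1 gave -0.13 to 0.00 in KO cells and did not pass, though Galns was called lower there without KO ADP-Hep 3 (adjusted p = 0.0126) or WT PBS 3 (adjusted p = 0.0459). Leaving out a library ended the call of Gusb in WT cells for 9 libraries, all but WT PBS 1, WT ADP-Hep 3 and KO PBS 1 (adjusted p between 0.0521 and 0.193). It ended that of Gaa in KO cells for WT PBS 1, WT ADP-Hep 2, KO PBS 2, KO PBS 3, KO ADP-Hep 1 and the unnumbered KO ADP-Hep library (adjusted p between 0.0509 and 0.269), and that of Hexa in KO cells for KO ADP-Hep 1 (adjusted p = 0.0692).

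**Figure D3:**
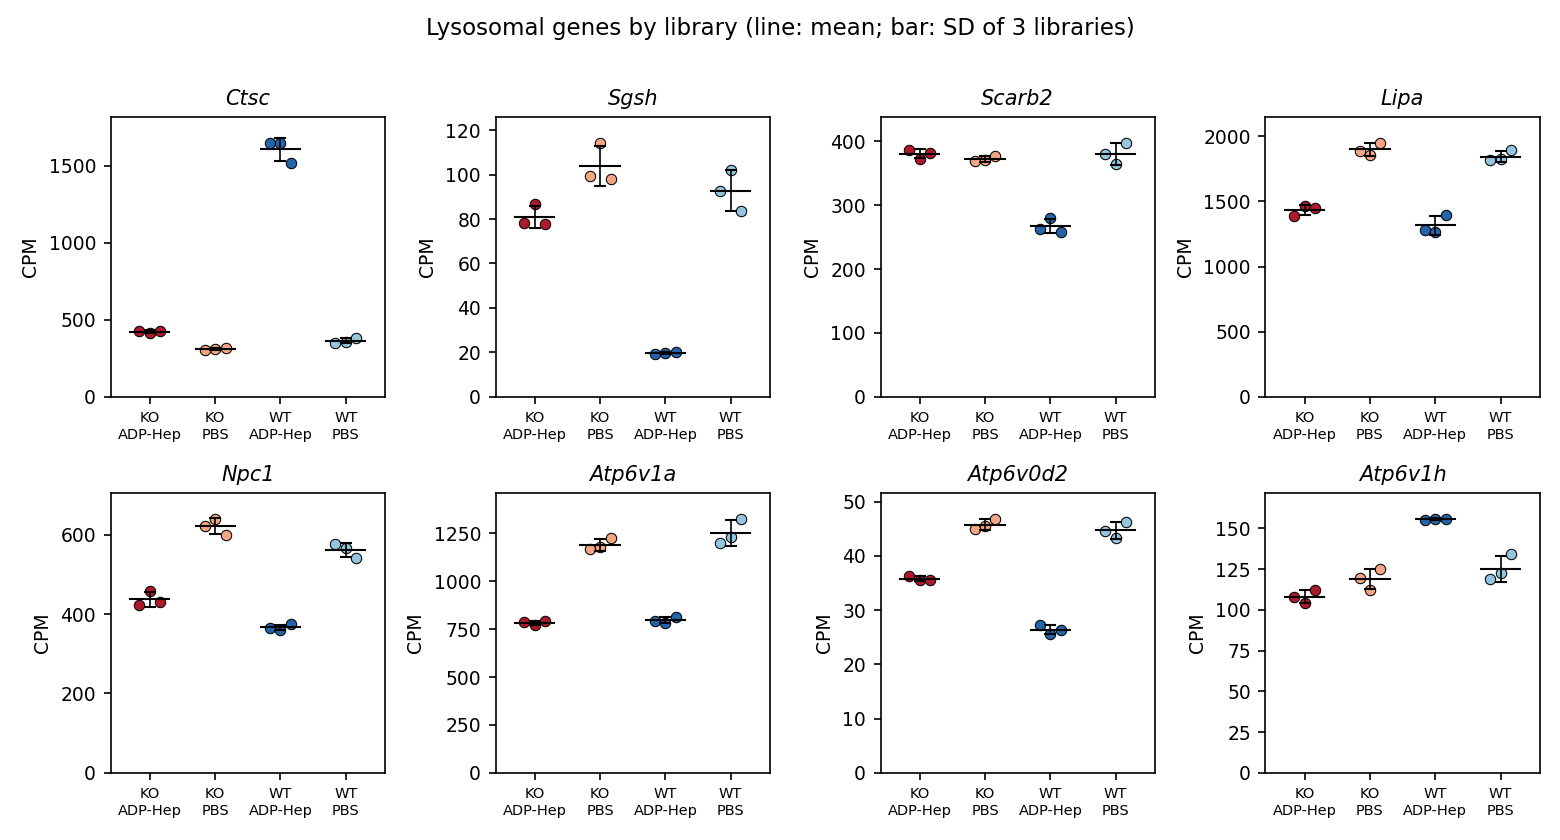
Level in CPM (y axis, each panel on its own scale from 0) of 8 lysosomal genes in each library, with a point per library, a line at the mean and a bar for the SD of the 3 libraries of KO ADP-Hep, KO PBS, WT ADP-Hep and WT PBS cells from left to right. Ctsc and Sgsh moved mainly in WT cells (2.14 and -2.23 on the log2 scale), Lipa, Npc1 and Atp6v1a were low with ADP-Hep in both genotypes, and Atp6v1h was above the rest in WT ADP-Hep cells.

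The lipid hydrolases and the other soluble proteins fell in WT cells for the most part: 2 of 8 fell in KO cells and 7 of 8 in WT cells. Lipa, lysosomal acid lipase, which frees cholesterol and fatty acids from lipoprotein lipids, had 1389.8, 1464 and 1449 CPM in KO ADP-Hep cells and 1889.9, 1857 and 1952 CPM in KO PBS cells. WT levels came to 1285, 1266 and 1397 CPM with ADP-Hep and 1816, 1823 and 1895 CPM with PBS. Its ADP-Hep libraries lay below the PBS libraries in both genotypes, with -0.41 (SE 0.05, adjusted p = 1.69e-07) in KO and -0.49 (SE 0.05, adjusted p = 7.95e-10) in WT cells. Psap, the precursor of the saposins that present sphingolipids to their hydrolases, had 14468, 15824 and 14659 CPM in KO ADP-Hep cells and 17584, 18826 and 17915 CPM in KO PBS cells. It stood at 10192, 10555 and 11662 CPM in WT ADP-Hep and 14699, 14857 and 13643 CPM in WT PBS cells. It fell in both, with -0.27 (adjusted p = 2.64e-04) in KO and -0.41 (adjusted p = 1.61e-07) in WT cells on the log2 scale, and the KO ADP-Hep libraries overlapped WT PBS. Smpd1, acid sphingomyelinase, had 35.3, 35.4 and 34.4 CPM in KO ADP-Hep cells and 38.4, 40.3 and 34.1 CPM in KO PBS cells. WT cells had 29.4, 26.1 and 28.2 CPM with ADP-Hep and 40.4, 40.5 and 35.9 CPM with PBS. ADP-Hep and PBS libraries overlapped in KO cells and not in WT cells, with -0.11 (SE 0.07, adjusted p = 0.262) in KO and -0.47 (SE 0.07, adjusted p = 1.87e-06) in WT cells. Asah1 (acid ceramidase), Ppt1 (a thioesterase that removes palmitate from proteins), Grn (progranulin) and Tpp1 (a tripeptidyl peptidase) gave -0.11 to -0.05 in KO cells, where none passed, and fell in WT cells, with values between -0.35 and -0.20. Npc2, the soluble cholesterol carrier that hands cholesterol to Npc1, gave -0.10 in KO and -0.04 in WT cells and passed in neither. In KO cells Npc2 was called lower without WT PBS 3 (adjusted p = 0.05 after rounding) and Grn without WT ADP-Hep 3 (adjusted p = 0.0464). Npc2 was called lower there with DESeq2 (adjusted p = 0.0186) and limma-voom (adjusted p = 0.0377) too.

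Of the membrane proteins, 5 of 8 fell in each genotype, 3 of them the same (Lamp1, Mcoln1 and Npc1). Npc1, which exports cholesterol from the lysosome, had 424, 458 and 429.6 CPM in KO ADP-Hep cells and 623, 641 and 600.1 CPM in KO PBS cells. Its levels in WT cells were 364, 361 and 374 CPM with ADP-Hep and 577, 567 and 541 CPM with PBS. The change was -0.51 (SE 0.04, adjusted p = 2.55e-09) in KO and -0.62 (SE 0.04, adjusted p = 5.75e-12) in WT cells, the largest of the 8 in KO cells. Mcoln1, the calcium channel TRPML1, through which lysosomal calcium reaches the machinery that activates Tfeb, had 61.5, 61.98 and 54.8 CPM in KO ADP-Hep cells and 78.1, 77.1 and 68.2 CPM in KO PBS cells. The WT libraries held 40.8, 41.3 and 41.7 CPM with ADP-Hep and 67.5, 66.9 and 56.9 CPM with PBS. It fell in both without overlap between ADP-Hep and PBS, with -0.33 (adjusted p = 5.89e-04) in KO and -0.62 (adjusted p = 2.90e-08) in WT cells. Scarb2, the receptor that carries glucocerebrosidase to the lysosome, had 387, 373 and 382 CPM in KO ADP-Hep cells and 369, 370.5 and 377 CPM in KO PBS cells. WT levels came to 263, 279 and 259 CPM with ADP-Hep and 379.5, 364 and 398 CPM with PBS. Its WT ADP-Hep libraries lay below all 9 others, which overlapped among themselves, and the change was 0.03 (SE 0.04, adjusted p = 0.616) in KO but -0.51 (SE 0.04, adjusted p = 2.34e-10) in WT cells. Laptm5, a lysosomal protein of blood cells, gave -0.06 in KO cells and likewise fell in WT cells (-0.37, SE 0.05, adjusted p = 1.59e-06). Cln3 and Cd63 had the opposite pattern of calls, with -0.32 and -0.21 in KO cells, both called, and -0.03 and -0.10 in WT cells. Reads of Cln3 cannot be told from those of Apobr on the other strand over 442 bases if strand was not used in counting, and Apobr rose by 0.67 in WT cells. Lamp1, the main glycoprotein of the lysosomal membrane, fell in both (-0.17 in KO and -0.24 in WT cells), whereas its relative Lamp2 gave -0.00 in KO and -0.06 in WT cells and passed in neither. The KO call of Lamp1 was lost without KO ADP-Hep 1 (adjusted p = 0.0651). Cd63 was called lower in WT cells as well without WT ADP-Hep 3 (adjusted p = 0.00463) or with limma-voom (adjusted p = 0.0473).

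The 5 V-ATPase genes did not move as a block. Atp6v1a, the catalytic subunit that splits ATP, had 789, 772 and 791 CPM in KO ADP-Hep cells and 1166, 1179 and 1225 CPM in KO PBS cells. It stood at 794, 784 and 816 CPM in WT ADP-Hep and 1197, 1233 and 1328 CPM in WT PBS cells. The 2 ADP-Hep groups overlapped each other and lay well below the PBS groups, with -0.60 (SE 0.04, adjusted p = 1.37e-10) in KO and -0.65 (SE 0.04, adjusted p = 1.92e-12) in WT cells, the largest fall of all 47 genes in KO cells. Atp6v1h, the regulatory subunit that links the catalytic and the membrane sector, had 108, 104 and 112 CPM in KO ADP-Hep cells and 119.8, 112 and 125 CPM in KO PBS cells. WT cells had 155, 156 and 156 CPM with ADP-Hep and 119, 123 and 134 CPM with PBS. It gave -0.14 (SE 0.05, adjusted p = 0.0583) in KO cells and rose in WT cells (0.31, SE 0.05, adjusted p = 9.96e-06). The paralogs Atp6v0d1 and Atp6v0d2 code for alternative forms of the d subunit, the first found in most cells and the second in osteoclasts and some macrophages. Atp6v0d1 had 242, 250.05 and 251 CPM in KO ADP-Hep cells and 270.1, 284 and 278 CPM in KO PBS cells. Its levels in WT cells were 249.99, 257 and 269.95 CPM with ADP-Hep and 283, 282 and 287 CPM with PBS. Atp6v0d2 had 36.3, 35.6 and 35.5 CPM in KO ADP-Hep cells and 45.04, 45.4 and 46.9 CPM in KO PBS cells. The WT libraries held 27.3, 25.7 and 26.3 CPM with ADP-Hep and 44.5, 43.3 and 46.3 CPM with PBS. Both fell in both genotypes, Atp6v0d1 with -0.16 in KO and -0.14 in WT cells, and Atp6v0d2 with -0.35 (SE 0.06, adjusted p = 2.68e-05) in KO and -0.76 (SE 0.06, adjusted p = 1.11e-11) in WT cells. Per kilobase of exon, Atp6v0d1 was at 158.6 and Atp6v0d2 at 16.5 CPM per kb in WT PBS cells. The osteoclast markers that were detected, Mmp9 and Acp5, gave -0.20 and -0.06 in KO cells, where neither passed, and rose by 2.66 and 0.59 in WT cells, in which Atp6v0d2 fell. Atp6ap1, an accessory subunit, fell in KO cells (-0.17, SE 0.05, adjusted p = 0.00858) and gave 0.01 in WT cells, a value that turned to -0.10 with library totals as scaling. The KO call of Atp6ap1 was lost without KO ADP-Hep 1 (adjusted p = 0.0603), and Atp6v1h was called lower in KO cells without WT PBS 3 (adjusted p = 0.032) or KO PBS 2 (adjusted p = 0.0267).

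The 3 MiT/TFE factors went different ways in WT cells. Mitf (chromosome 6, bases 97807052 to 98021349, plus strand), a factor also known from pigment cells and osteoclasts, had 79.1, 76.1 and 86.3 CPM in KO ADP-Hep cells and 103, 106 and 111 CPM in KO PBS cells. WT levels came to 143, 143 and 140.1 CPM with ADP-Hep and 106, 107 and 112 CPM with PBS. ADP-Hep libraries lay below PBS in KO cells and above PBS in WT cells without overlap, with -0.40 (SE 0.05, adjusted p = 1.55e-06) in KO and 0.39 (SE 0.05, adjusted p = 1.89e-07) in WT cells. Tfe3 had 142, 155 and 156 CPM in KO ADP-Hep cells and 149, 151 and 153 CPM in KO PBS cells. It stood at 203, 205 and 212 CPM in WT ADP-Hep and 145, 154 and 141 CPM in WT PBS cells. The KO groups overlapped (-0.01, SE 0.05, adjusted p = 0.95), while it rose in WT cells (0.49, SE 0.05, adjusted p = 1.64e-09) without overlap. Tfeb, the member best known as the driver of lysosomal genes, had 34.9, 35.7 and 32.8 CPM in KO ADP-Hep cells and 38.2, 42.6 and 43.8 CPM in KO PBS cells. WT cells had 26.5, 27.9 and 27.2 CPM with ADP-Hep and 38.1, 41.9 and 36.2 CPM with PBS. It fell in both without overlap, with -0.27 (SE 0.07, adjusted p = 0.00288) in KO and -0.50 (SE 0.07, adjusted p = 4.50e-07) in WT cells. A list of 23 genes holds the MiT/TFE relative Tfec and genes that act on these factors at the lysosome. Of these 23, none rose and 8 fell in KO cells, beside all-gene shares of 13.7% rising and 15.3% falling. In WT cells 5, Tfec among them, rose and 10 fell, beside all-gene shares of 31.9% rising and 31.6% falling. Fnip2, the folliculin partner, had 285, 313 and 289 CPM in KO ADP-Hep cells and 847, 889 and 849.97 CPM in KO PBS cells. Its levels in WT cells were 161, 154 and 157 CPM with ADP-Hep and 915, 907 and 885 CPM with PBS. The fold changes were -1.54 (SE 0.04, adjusted p = 2.40e-18) in KO and -2.52 (SE 0.05, adjusted p = 6.75e-24) in WT cells. Rragd, a Rag GTPase on which folliculin acts, had 34.3, 33.6 and 33.7 CPM in KO ADP-Hep cells and 49.2, 52.5 and 51.01 CPM in KO PBS cells. The WT libraries held 11.2, 11.5 and 11.4 CPM with ADP-Hep and 43.4, 42.7 and 43.6 CPM with PBS. This gave -0.59 (SE 0.05, adjusted p = 7.74e-09) in KO and -1.93 (SE 0.06, adjusted p = 5.83e-19) in WT cells. Their ADP-Hep libraries lay below the PBS libraries in both genotypes and lowest in WT. A further 3 genes of that list were picked after their values were seen: Flcn gave -0.67 in KO and -1.48 in WT cells and Rragc -0.68 in KO and -0.79 in WT cells, all called lower, whereas Tfec, the MiT/TFE relative found mainly in macrophages and related cells, gave -0.15 in KO cells (adjusted p = 0.263) and rose in WT cells (1.18, SE 0.09, adjusted p = 1.07e-09).

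**Figure D4:**
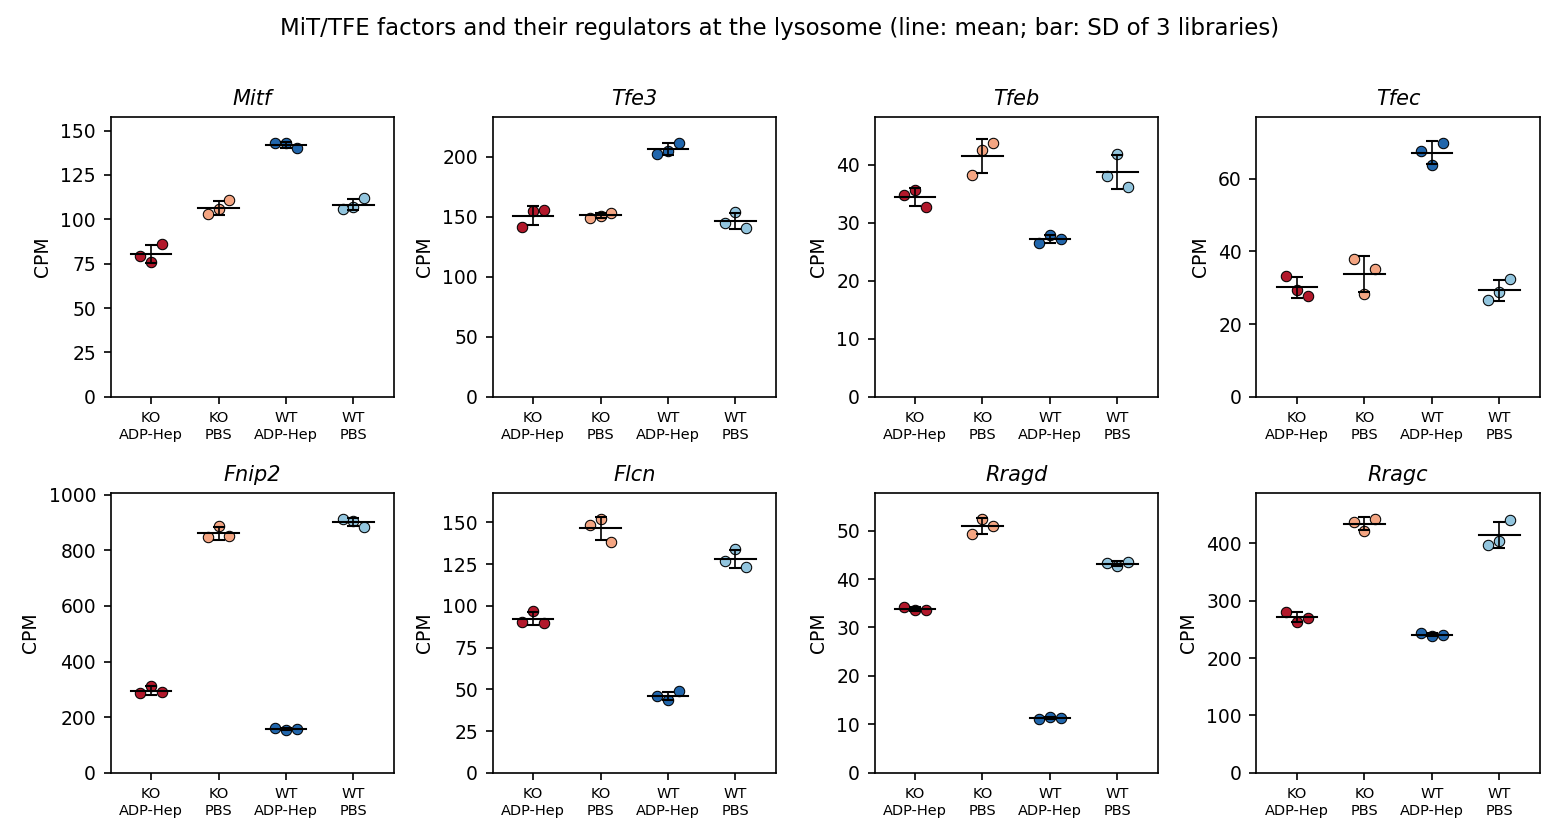
Level in CPM (y axis, each panel on its own scale from 0) of the MiT/TFE factors Mitf, Tfe3, Tfeb and Tfec and of Fnip2, Flcn, Rragd and Rragc in each library, with a point per library, a line at the mean and a bar for the SD of the 3 libraries of KO ADP-Hep, KO PBS, WT ADP-Hep and WT PBS cells from left to right. Mitf, Tfe3 and Tfec were highest in WT ADP-Hep cells, and Tfeb, Fnip2, Flcn, Rragd and Rragc were lowest there.

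Whether the response differed between the genotypes was tested as the WT response minus the KO response, so that a negative value means a lower value of the response in WT cells. The difference was called negative for 19 of the 47 genes and positive for 7, against 24.9% and 24.6% of all genes, with a median of -0.11 over the 47 and -0.01 over all genes. Glycosidases and sulfatases made up 10 of the 19, and the share of the 47 with a negative call was above that of all genes while the share with a positive call was below it. The split rests on the scaling: with library totals in place of TMM it was 34 negative and 5 positive, and the median over all genes moved to -0.16, over the 47 to -0.26. In size, Sgsh differed most (-1.86, SE 0.10, adjusted p = 1.11e-12), followed on the negative side by Naglu (-0.61, SE 0.10, adjusted p = 3.90e-05), Scarb2 (-0.54, SE 0.06, adjusted p = 8.09e-08), Arsa (-0.45), Manba (-0.44), Atp6v0d2 (-0.41) and Smpd1 (-0.36). On the positive side were Ctsc (1.69, SE 0.06, adjusted p = 5.86e-17), Mitf (0.79, SE 0.07, adjusted p = 1.14e-09), Tfe3 (0.50, SE 0.07, adjusted p = 1.16e-06), Atp6v1h (0.45, SE 0.07, adjusted p = 1.83e-05), Ctsz (0.39), Cln3 (0.30) and Atp6ap1 (0.18), of which Cln3 (adjusted p = 0.135) and Atp6ap1 (adjusted p = 0.739) lost their calls with library totals as scaling. Against a 1.5-fold difference, Ctsc and Mitf were called on the positive and Sgsh on the negative side, where 6.69% of all genes were positive and 5.76% negative.

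Of the 21 genes lower in both genotypes, 9 fell by more in WT cells and 12 did not pass the test of the difference. Those 12 were Atp6v0d1, Atp6v1a, Ctsa, Ctsb, Ctsd, Ctsk, Gaa, Lamp1, Lipa, Neu1, Npc1 and Psap. For Atp6v1a the difference was -0.05 with a 95% interval of -0.19 to 0.10, for Ctsd -0.05 (-0.24 to 0.13), for Lipa -0.08 (-0.23 to 0.07) and for Npc1 -0.11 (-0.25 to 0.04). These intervals hold for scaling by TMM alone and do not show that the responses were equal. With library totals as scaling, the values were -0.205 for Atp6v1a, -0.211 for Ctsd, -0.238 for Lipa and -0.263 for Npc1. Of these, only that of Ctsd lay within its interval. The differences of 9 of the 12 genes (all but Atp6v0d1, Ctsk and Neu1) were called negative as well with that scaling. Several calls of the difference rested on single libraries. That of Mcoln1 (-0.29, SE 0.10, adjusted p = 0.0149) was lost without KO PBS 3 (adjusted p = 0.0529) and that of Fuca1 without WT ADP-Hep 2 (adjusted p = 0.0542). The call of Ctsh was lost without WT PBS 2, WT ADP-Hep 1 or WT ADP-Hep 2 (adjusted p between 0.0567 and 0.0632), and that of Atp6ap1 without WT PBS 1, WT ADP-Hep 3, KO PBS 3, KO ADP-Hep 1 or the unnumbered KO ADP-Hep library (0.0568 to 0.0981). Glb1 was called with all libraries and lost its call without any 1 of 9 of them, the exceptions being WT PBS 3, WT ADP-Hep 3 and KO PBS 2 (0.0635 to 0.14), and also with DESeq2 (0.0873). Tfeb (-0.23, SE 0.10, adjusted p = 0.0488) lost its call without WT PBS 1 or 2, any WT ADP-Hep library, KO PBS 1 or KO ADP-Hep 1 or 3 (0.058 to 0.161), and also with DESeq2 (adjusted p = 0.112) and limma-voom (adjusted p = 0.057). Calls gained were a negative difference of Psap and of Grn without WT PBS 3 or WT ADP-Hep 3, a negative one of Gaa without KO PBS 2, and a positive one of Ctsl without WT PBS 3 or KO PBS 2 (adjusted p between 0.0119 and 0.0464). The difference of Ctsl was called positive with DESeq2 (adjusted p = 0.0132) and limma-voom (adjusted p = 0.034) as well.

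**Figure D5:**
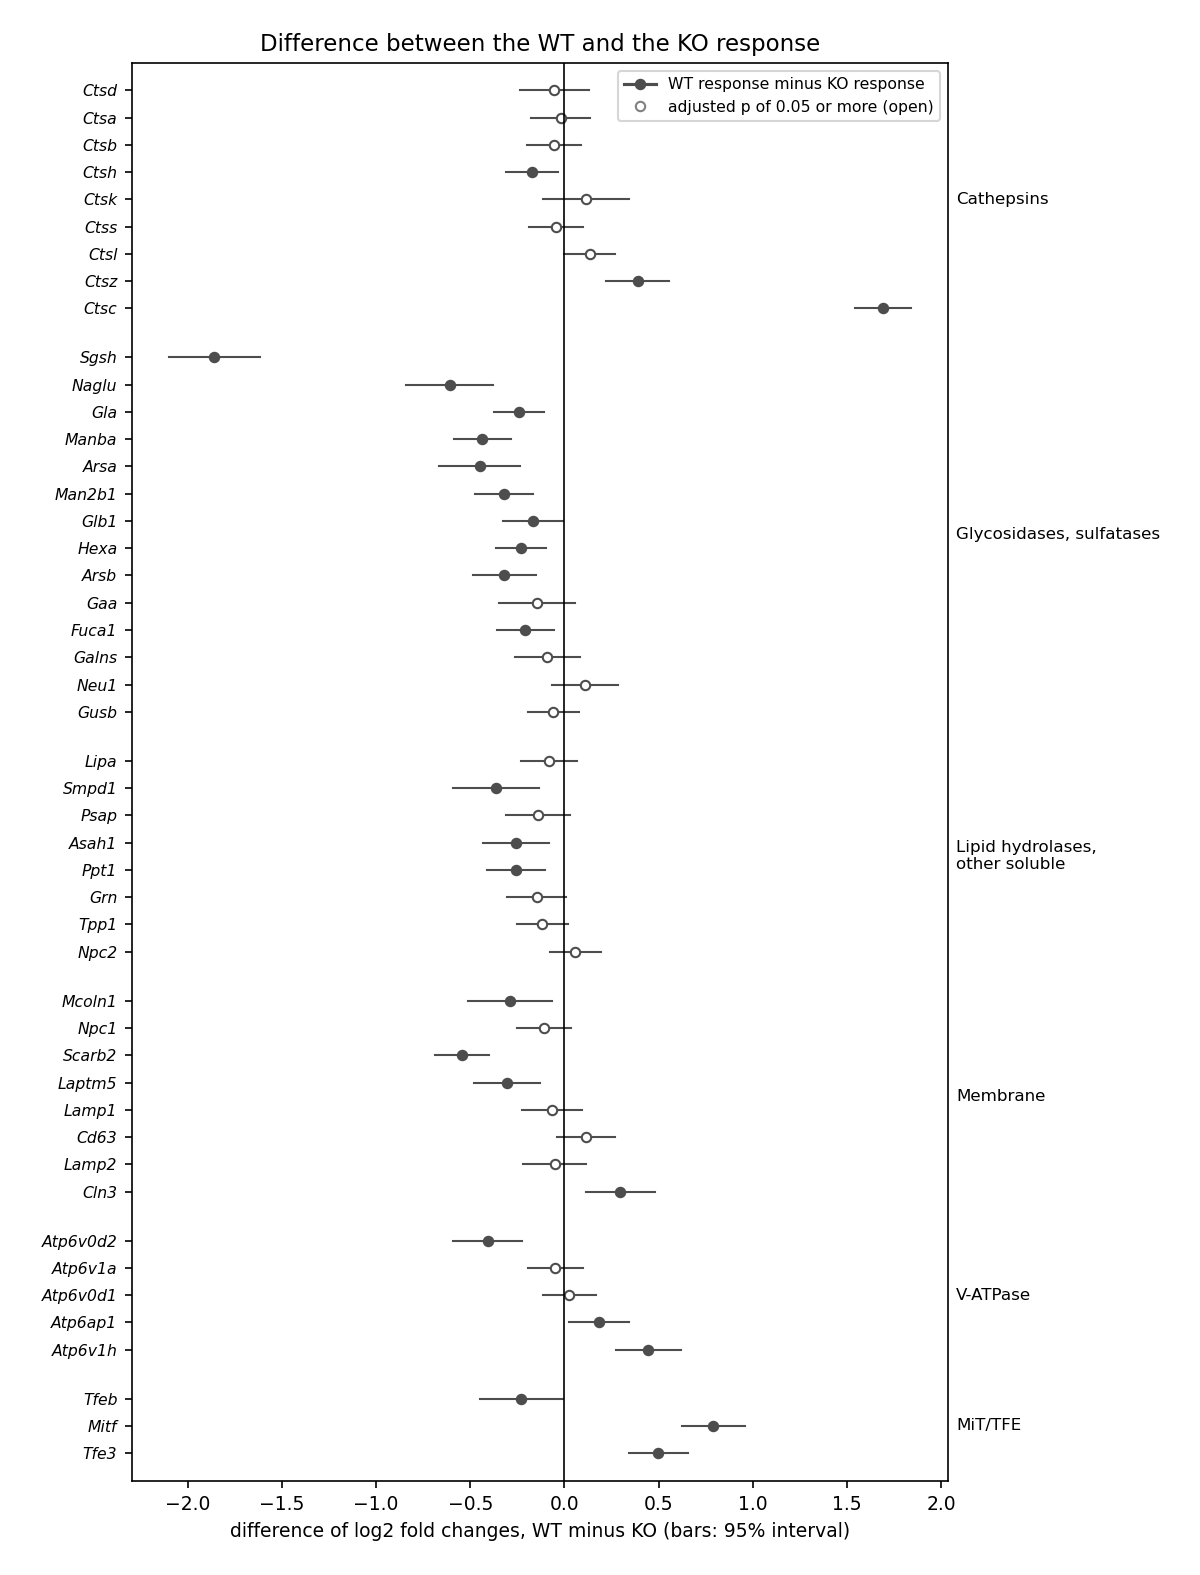
Difference of log2 fold changes, WT response minus KO response (x axis), for each of the 47 genes (y axis, in the order of the plot of responses by class), with bars for the 95% interval and filled points where the adjusted p was under 0.05. Sgsh (-1.86) and Ctsc (1.69) lie apart from the rest, and for 21 genes the point is open. With library totals as scaling 34 genes were called negative in place of 19.

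Without ADP-Hep, 9 of the 47 genes were higher and 4 lower in KO PBS than in WT PBS cells, against 5.57% and 5.82% of all genes. Psap was the clearest of the higher ones (0.33, SE 0.05, adjusted p = 8.87e-05), followed by Laptm5 (0.23), Mcoln1 (0.23), Ctsh (0.22), Cd63 (0.21), Hexa (0.20), Lamp1 (0.17), Npc1 (0.15) and Man2b1 (0.15). The lower ones were Ctsl (-0.28, SE 0.04, adjusted p = 3.07e-05), Ctsk (-0.25), Ctsc (-0.23) and Arsb (-0.20). None of the 47 passed against a 1.5-fold change, where 0.122% of all genes were higher and 0.13% lower. Without WT PBS 3 the count higher was 5, and without WT PBS 2 the count lower was 2. Leaving out KO PBS 1 or WT PBS 2 ended the call of Arsb (adjusted p = 0.0799 and 0.0536), and leaving out KO PBS 3 or WT PBS 2 that of Ctsk (0.112 and 0.141). The call of Lamp1 was lost without KO PBS 3, WT PBS 1 or WT PBS 3 (0.0605 to 0.0909), that of Mcoln1 without KO PBS 1, KO PBS 2 or WT PBS 3 (0.0899 to 0.165), and that of Npc1 without KO PBS 1, KO PBS 2, WT PBS 2 or WT PBS 3 (0.0652 to 0.125). Man2b1 lost its call without any 1 of 9 libraries (0.0503 to 0.16), the exceptions being KO ADP-Hep 3, WT ADP-Hep 1 and WT ADP-Hep 3. Ctsb and Ctsz were called without WT ADP-Hep 3, and Sgsh without WT PBS 2. Ctsb was called with DESeq2 (adjusted p = 0.0383) and limma-voom (adjusted p = 0.0314) too.

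After ADP-Hep, 28 of the 47 were higher and 9 lower in KO than in WT cells, against 32.8% and 32.0% of all genes, with a median log2 fold change of 0.20 against 0.01 over all genes. With library totals as scaling 37 were higher and 6 lower, and the median over all genes was 0.17. Higher in KO were Sgsh (2.03, SE 0.08, adjusted p = 3.95e-16), Naglu (0.69, SE 0.07, adjusted p = 4.95e-08), Laptm5 (0.54), Mcoln1 (0.52), Scarb2 (0.51), Man2b1 (0.47), Psap (0.47) and 21 others. Lower in KO were Ctsc (-1.92, SE 0.05, adjusted p = 8.91e-22), Mitf (-0.82, SE 0.05, adjusted p = 2.51e-13), Atp6v1h (-0.52), Tfe3 (-0.45), Ctsl (-0.42), Ctsk (-0.36), Ctsz (-0.26), Cln3 (-0.16) and Atp6ap1 (-0.16), the last 3 of which lost their calls with library totals as scaling (adjusted p between 0.0595 and 0.936). Atp6v1a gave -0.03 (adjusted p = 0.633), with a 95% interval of -0.13 to 0.08, a value that turned to 0.13 with library totals as scaling. Against a 1.5-fold difference Sgsh was higher and Ctsc and Mitf lower, where 8.83% of all genes were higher and 9.14% lower. The call of Arsb was lost without any KO ADP-Hep library, WT ADP-Hep 1 or 2, or WT PBS 1 or 2 (adjusted p between 0.052 and 0.178), and also with DESeq2 (adjusted p = 0.122). That of Cln3 was lost without KO ADP-Hep 1, the unnumbered KO library or WT ADP-Hep 3 (0.0507 to 0.0813), that of Ctsa without KO ADP-Hep 3 or WT ADP-Hep 1 or 2 (0.0728 to 0.0918), and that of Lipa without those libraries or the unnumbered one (0.0601 to 0.141). Without WT ADP-Hep 3, Cd63, Ctsd and Gusb were called higher as well (0.00206 to 0.0178), and Ctsd also without KO ADP-Hep 1. Gusb was called higher with limma-voom too (adjusted p = 0.0294). This comparison shares its libraries with the responses above.

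Other genes of the lysosome were taken from lists and not from the 47. The counts in these lists are to be read beside the shares of all 12261 tested genes. Those were 13.7% higher and 15.3% lower in KO cells, and 31.9% higher and 31.6% lower in WT cells. Of 24 other hydrolases and cofactors, 1 rose and 8 fell in KO cells and 5 rose and 14 fell in WT cells. Pla2g15, the lysosomal phospholipase A, had 177, 178 and 179 CPM in KO ADP-Hep cells and 214, 229.7 and 216 CPM in KO PBS cells. WT levels came to 53.2, 48.2 and 53.7 CPM with ADP-Hep and 171, 174 and 178 CPM with PBS. The responses were -0.31 (SE 0.05, adjusted p = 1.58e-05) in KO and -1.76 (SE 0.05, adjusted p = 4.17e-20) in WT cells. Acp2, lysosomal acid phosphatase, ran the other way, with 239, 238 and 242 CPM in KO ADP-Hep cells and 204, 216 and 204 CPM in KO PBS cells. It stood at 435, 438 and 444 CPM in WT ADP-Hep and 208, 210.4 and 213 CPM in WT PBS cells. Its response was 0.20 (SE 0.04, adjusted p = 5.58e-04) in KO and 1.06 (SE 0.04, adjusted p = 1.83e-17) in WT cells. Among 21 other membrane proteins and transporters that passed the filter, 4 rose and 8 fell in KO cells and 6 rose and 12 fell in WT cells. Slc15a3, a transporter of histidine and small peptides, had 215, 231 and 217 CPM in KO ADP-Hep cells and 175, 187 and 186 CPM in KO PBS cells. WT cells had 526, 556 and 618 CPM with ADP-Hep and 185, 178 and 172 CPM with PBS. The log2 fold change was 0.27 in KO and 1.67 in WT cells, both called. Mcoln2, the channel relative of Mcoln1, had 25.7, 26.2 and 25.2 CPM in KO ADP-Hep cells and 51.8, 42.4 and 49.3 CPM in KO PBS cells. Its levels in WT cells were 112, 112 and 122 CPM with ADP-Hep and 51.5, 49.1 and 49.4 CPM with PBS. It was called in opposite directions, with -0.89 (SE 0.07, adjusted p = 3.33e-10) in KO and 1.20 (SE 0.06, adjusted p = 2.52e-15) in WT cells.

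Of 13 other V-ATPase subunits tested, 1 rose and 9 fell in KO cells, and 3 rose and 3 fell in WT cells. Of all tested genes, 13.7% rose and 15.3% fell in KO cells, and 31.9% rose and 31.6% fell in WT cells. The same shares apply to the lists that follow here. Atp6v1c1 had 209, 206 and 212 CPM in KO ADP-Hep cells and 293, 289.9 and 284 CPM in KO PBS cells. The WT libraries held 222, 219.7 and 209.5 CPM with ADP-Hep and 293, 287 and 320.4 CPM with PBS. The responses came to -0.47 in KO and -0.47 in WT cells, both called. Atp6v0a2, a membrane subunit of the Golgi and endosomal pump, rose in both, with 0.36 in KO and 0.50 in WT cells. The difference between the responses was positive for 4 and negative for none of the 13, against 24.6% and 24.9% of all genes. Its median was 0.14 over the 13. Of 12 genes that sort hydrolases to the lysosome, none rose and 3 fell in KO cells and 4 rose and 6 fell in WT cells. M6pr, a receptor for the mannose phosphate tag of hydrolases, had 377, 389 and 376 CPM in KO ADP-Hep cells and 367, 349 and 369.7 CPM in KO PBS cells. WT levels came to 628, 639 and 648 CPM with ADP-Hep and 382, 387 and 386 CPM with PBS. Its fold changes were 0.07 (SE 0.04, adjusted p = 0.202) in KO and 0.73 (SE 0.04, adjusted p = 3.60e-14) in WT cells. Sort1, sortilin, a sorting receptor that works without that tag, had 166, 169 and 171 CPM in KO ADP-Hep cells and 164, 168 and 168 CPM in KO PBS cells. It stood at 111, 118 and 116 CPM in WT ADP-Hep and 208, 199.7 and 202 CPM in WT PBS cells. The values of the response were 0.02 (SE 0.04, adjusted p = 0.806) in KO and -0.82 (SE 0.04, adjusted p = 1.19e-14) in WT cells. Of 9 inhibitors of lysosomal proteases tested, none rose and 1 fell in KO cells, and 3 rose and 2 fell in WT cells. Cstb (cystatin B) was the 1 that fell in KO cells (-0.16), and it rose in WT cells (0.33), while Serpinb6a, a cytosolic serpin, gave -0.07 in KO cells and fell in WT cells (-0.40).

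The responses are set beside the promoter letters as a description, and the relation was not tested. In KO cells 12 of the 14 with an E-box (85.71%) and 11 of the 26 without (42.31%) were called lower, with medians of -0.29 and -0.11. In WT cells the figures were 12 of 14 (85.71%) and 18 of 26 (69.23%), with medians of -0.38 and -0.23. Among the other tested genes with a promoter in the table, 20.66% of 1123 with an E-box and 14.83% of 8359 without were called lower in KO cells, and 34.91% and 31.04% in WT cells. The E-box members not called lower were Arsa and Ctsl in KO cells and Cln3 and Ctsl in WT cells.

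Several of the 47 genes share exon sequence with another gene, and the strand setting of the counting is not given in the sources used here. Ctsd overlaps the annotated gene Gm49369 on the same strand over 34.4% of its exon bases, so that its reads may have been split or discarded. Also on the same strand, Glb1 overlaps Tmppe over 165 bases, with 4561 counts against 28599, and Ctsl the pseudogene Gm49230 over 395 bases. On the other strand Ctsb overlaps Fdft1 over 774 bases, with 7828 counts for Fdft1 against 2830171 for Ctsb. Ctsa overlaps Pltp there over 495 bases, with 17832 counts against 218262, and Neurl2 over 324 bases, with 783 counts. In WT cells Fdft1 changed by 0.51, Pltp by -0.77, Neurl2 by -1.24 and Tmppe by -0.10. The part of these overlaps in the values was not tested. For Ppt1 the partner Cap1 had more counts, 181200 against 25412, over 129 shared bases, and Cap1 changed by -0.10 in WT cells.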

How the data were processed

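Counts per gene in 12 libraries were used as the authors deposited them, in one table of raw counts. The submitters' processing notes name STAR, featureCounts and RSEM, besides DESeq2, FastQC and Trim Galore, and the builds mm10 and hg38. Not given in the sources used here are their versions, the strand setting and which of them made these counts. Per the labels' protocols the library kit was a stranded mRNA kit.

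Of 56749 rows, 37542 were used. Below a break the KO columns fit the identifiers 1 row away: mean log counts of KO and WT columns correlated across genes with r = 0.9965 in the rows used, 0.042 below the break as deposited and 0.9787 there after moving the KO columns by 1 row. The 19206 rows from 100 rows above the break onward were left out. The table's last row has no identifier and 0 counts, and was left out too. Of the rows used, 37490 matched GENCODE M21 (mm10), which gave coordinates and exon lengths. Groups came from the labels, and 1 KO ADP-Hep column whose number matches no label was kept in its group without a number.

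Counts were scaled by TMM and filtered with filterByExpr (12261 genes, common biological coefficient of variation 4.81%), and fitted with edgeR's robust quasi-likelihood model over 4 group means (edgeR 4.0.16, R 4.3.3). Log2 fold changes are estimates of that model, with p-values adjusted by Benjamini-Hochberg over all 12261 genes and called under 0.05. The SE is the log2 fold change divided by the square root of F, and 95% intervals use the t distribution with 8 degrees of freedom. CPM values are scaled by TMM. The procedure was also run on simulated counts in which few genes changed, as many up as down, in WT ADP-Hep cells alone. Far more genes changed in the real data, so that run cannot test the choice of scaling. Alternatives were other scalings, filters and row choices, DESeq2 1.42.0, limma 3.58.1 (voom), a replicate block, a 1.5-fold null and leaving out each library. Tables were joined with Python 3.11.15 and pandas 2.3.3. The members and the gene lists were chosen with earlier results of these data known. By the rule for named genes, values in every library are given, per class, for the 3 members with the smallest p in the WT response, the one with the smallest p in the KO response and any called in opposite directions, as well as Atp6v0d1, Atp6v0d2, Tfeb, Tfe3 and Mitf, and, per list of other genes, for the 2 called genes with the smallest p in the WT response. Exceptions among the list genes are Atp6v0a2, Cstb and Serpinb6a, for which only log2 fold changes are given.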

Additional observations from a re-analysis of the deposited data

Results flagged for a closer look

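The members picked by the rule for named genes were looked at for a response that differed between the genotypes by the test of the difference itself (edgeR's quasi-likelihood test, 3 libraries in each of 4 groups), and 12 met that rule. The values are the WT response minus the KO response on the log2 scale. The difference was positive for Ctsc (1.69), Mitf (0.79), Tfe3 (0.50) and Atp6v1h (0.45). It was negative for Sgsh (-1.86), Scarb2 (-0.54), Manba (-0.44), Atp6v0d2 (-0.41), Smpd1 (-0.36), Mcoln1 (-0.29), Gla (-0.24) and Tfeb (-0.23), of which Tfeb and Mcoln1 lost their calls without single libraries. No group held more than 3 libraries, so single libraries far from the others were not tested for.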

How the results depend on the processing

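Over the 47 genes and 5 comparisons, 235 values were recomputed under the alternatives, which gave 5593 values. Of these 5242 kept their direction and side of the threshold, leaving aside the direction of values called under neither setting. A further 278 lost a call and 69 gained one. The other 4 were not called in the main fit, and changed sign and were called with library totals as scaling. With library totals as scaling, Atp6ap1 turned to -0.10 in the WT response, and in KO against WT cells after ADP-Hep Npc2 turned to 0.15, Atp6v0d1 to 0.0934 and Atp6v1a to 0.13. That scaling moved the all-gene median to -0.16 for the difference between the responses and to 0.17 for KO against WT cells after ADP-Hep, and called 34 of the 47 differences negative. Against a 1.5-fold change 0 genes were higher and 0 lower in the KO response, 1 and 3 in the WT response, 2 positive and 1 negative in the difference, 0 and 0 in KO against WT cells with PBS and 1 and 2 after ADP-Hep. In the KO against WT comparison with PBS, leaving out 1 library gave 5 to 11 genes higher and 2 to 4 lower. The share of counts with all rows as the total was 4.48% in KO ADP-Hep, 5.40% in KO PBS, 3.75% in WT ADP-Hep and 4.51% in WT PBS cells, since the left-out rows enlarge the total. With the motif TCACGTGA 7 promoters matched, since longer letters match less often. The cause of the other changes was not tested.

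The labels do not say whether the replicate numbers pair the libraries. In their deviations from the group means, same-numbered libraries correlated with r between -0.421 and 0.199. Not every library correlated best with its own number. With 3 libraries a group these correlations cannot decide the question, since other differences between libraries may hide a pairing. With a replicate block over the 11 numbered libraries, 1 gene was higher and 21 lower in the KO response, 4 and 35 in the WT response, and 6 differences were positive and 18 negative, against 1 and 25, 4 and 35, and 6 and 18 for these libraries with no block, an alternative chosen after seeing the data. The KO calls lost with the block and not without it were those of Hexa (adjusted p = 0.0641), Manba (0.0585), Lamp1 (0.056) and Tfeb (0.0713). For the difference, a fit of only the groups compared is the main fit itself and gave no further value. Depth did not keep any of the 47 genes from the test, but 3 libraries a group limit how small a difference could be called.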
